A study of Mus musculus with 24 samples.

Results

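The measurements described here are the methylation levels of a bacterial DNA fragment, FR1, that was fully methylated in vitro and then placed at a single genomic site of mouse embryonic stem cells (ESCs) with and without TET proteins. They are 2 of the 24 samples of the series, 1 pool of integrated fragments in wild type ESCs and 1 pool in TET1/2/3 triple knockout (TET TKO) ESCs. The members are the values of the same construct and the same CpG in both pools, within -300 to 260 bp of the motif and with at least 10 reads in each pool. Of 1612 listed construct and CpG combinations in this window 1466 had reads, and 1448 met the minimum in both pools. They came from 62 constructs, of which 30 carried a wild type (WT) transcription factor motif, 31 carried a scrambled (Sc) version and 1 was the motif-free fragment. FOXD3 had 2 scrambled versions, Sc1 and Sc2, and all other motifs had 1.

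Methylated cytosines in CpG dinucleotides are copied after replication by DNMT1, which the cofactor UHRF1 recruits to hemi-methylated DNA, and new methylation is laid down by DNMT3A and DNMT3B. TET dioxygenases oxidise 5-methylcytosine to 5-hydroxymethylcytosine and further products, which the glycosylase TDG can excise, so that an unmodified cytosine is restored. Methylation can also be lost passively, when copying fails over successive cell divisions. In ESCs Tet1 and Tet2 are the expressed family members, and many occupied transcription factor sites in the genome of these cells have low methylation.

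In the assay, called Hi-TransMet, a library of FR1 plasmids that differ only in the inserted motif is exchanged into a cassette at the inactive beta-globin locus, and the inserts are read by bisulfite sequencing. Both pools received plasmids treated with the CpG methyltransferase M.SssI (the +SssI condition). The comparison asks which of the demethylation seen in ESCs needs TET proteins. The ESC pool was made in TC-1 cells of the strain C57BL/6 X 129S5 with all TET genes intact. The TET TKO pool was made in a separate line of the strain C57BL/6 X 129/sv, into which the cassette had been introduced by picking and screening surviving colonies. Reads rich in non-CpG methylation were filtered out in ESCs, but this filter was not applied in TET TKO. Genotype, strain, line and this filter therefore changed together and cannot be told apart.

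With 1 pool per genotype there was no replicate of the comparison. Tests on reads compare these 2 pools, not the genotypes, and intervals cover counting error only. Each pool was sequenced in several runs, 5 in ESC and 3 in TET TKO, and the labels do not say which of these were separate transfections. The median number of reads per value was 205.5 in ESC (range 13 to 1664) and 110.5 in TET TKO (range 18 to 615). Runs 10 and 11 of TET TKO had the same mix of constructs at the downstream CpG at 109 bp (chi-square test on the reads, 43.1 on 60 degrees of freedom, p = 0.951), whereas run 9 differed from both. Runs 10 and 11 were therefore counted as 1 run in the comparison over separate runs, the quasi-binomial model and the equal weighting of runs. Where single runs were left out in turn, runs 10 and 11 were left out separately, so leaving out run 10 kept run 11. Upstream CpGs of TET TKO rested almost wholly on run 10.

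The ESC runs did not have the same level of methylation, and this touches every comparison below. Over the 33 fragments with all upstream CpGs covered in both, run 4 was lower than run 5 by a mean of 30.7 points (SD of the differences 21.1). Downstream the same mean difference was 2.75 points over 39 fragments (SD 23.8). The motif-free fragment itself had an upstream level of 36.2% in run 4 and 70.1% in run 5. Upstream reads of WT constructs came from run 4 more often (median share 23.3%) than those of Sc constructs (median share 6.85%). In the 8 WT constructs below 40% in ESC, run 4 supplied a median of 74.0% of the upstream and 96.6% of the downstream reads. The main ESC values below sum the runs, so their order among constructs also follows the share of each run. Values with run 4 or run 5 alone as the ESC reference are given beside many of the constructs and pairs below.

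Fragments were more methylated in TET TKO than in ESC almost throughout. The mean over WT constructs was 51.4% in ESC (SD 20.6 over 30 constructs) and 89.6% in TET TKO (SD 9.06). The mean over Sc constructs was 67.4% in ESC (SD 10.7 over 31 constructs) and 88.7% in TET TKO (SD 8.08). The motif-free fragment had 62.8% in ESC and 88.0% in TET TKO. WT constructs were thus higher by a mean of 38.2 points, Sc constructs by 21.3 points and the motif-free fragment by 25.2 ± 7.88 points (95% counting interval).

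Of the 62 constructs 61 had a higher mean in TET TKO, and in 54 the difference was larger than its counting interval. The 8 constructs whose difference was within the interval were ETS WT, GATA WT, ER Sc, KAISO Sc, SOX9 Sc, OTX2 Sc, KLF4 Sc and PAX7.2 Sc. In ESC the WT levels covered 10.97% to 78.2%, and in TET TKO the same constructs covered 68.0% to 99.6%. No construct was above 90% in ESC, and 36 were above it in TET TKO.

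**Figure D1:**
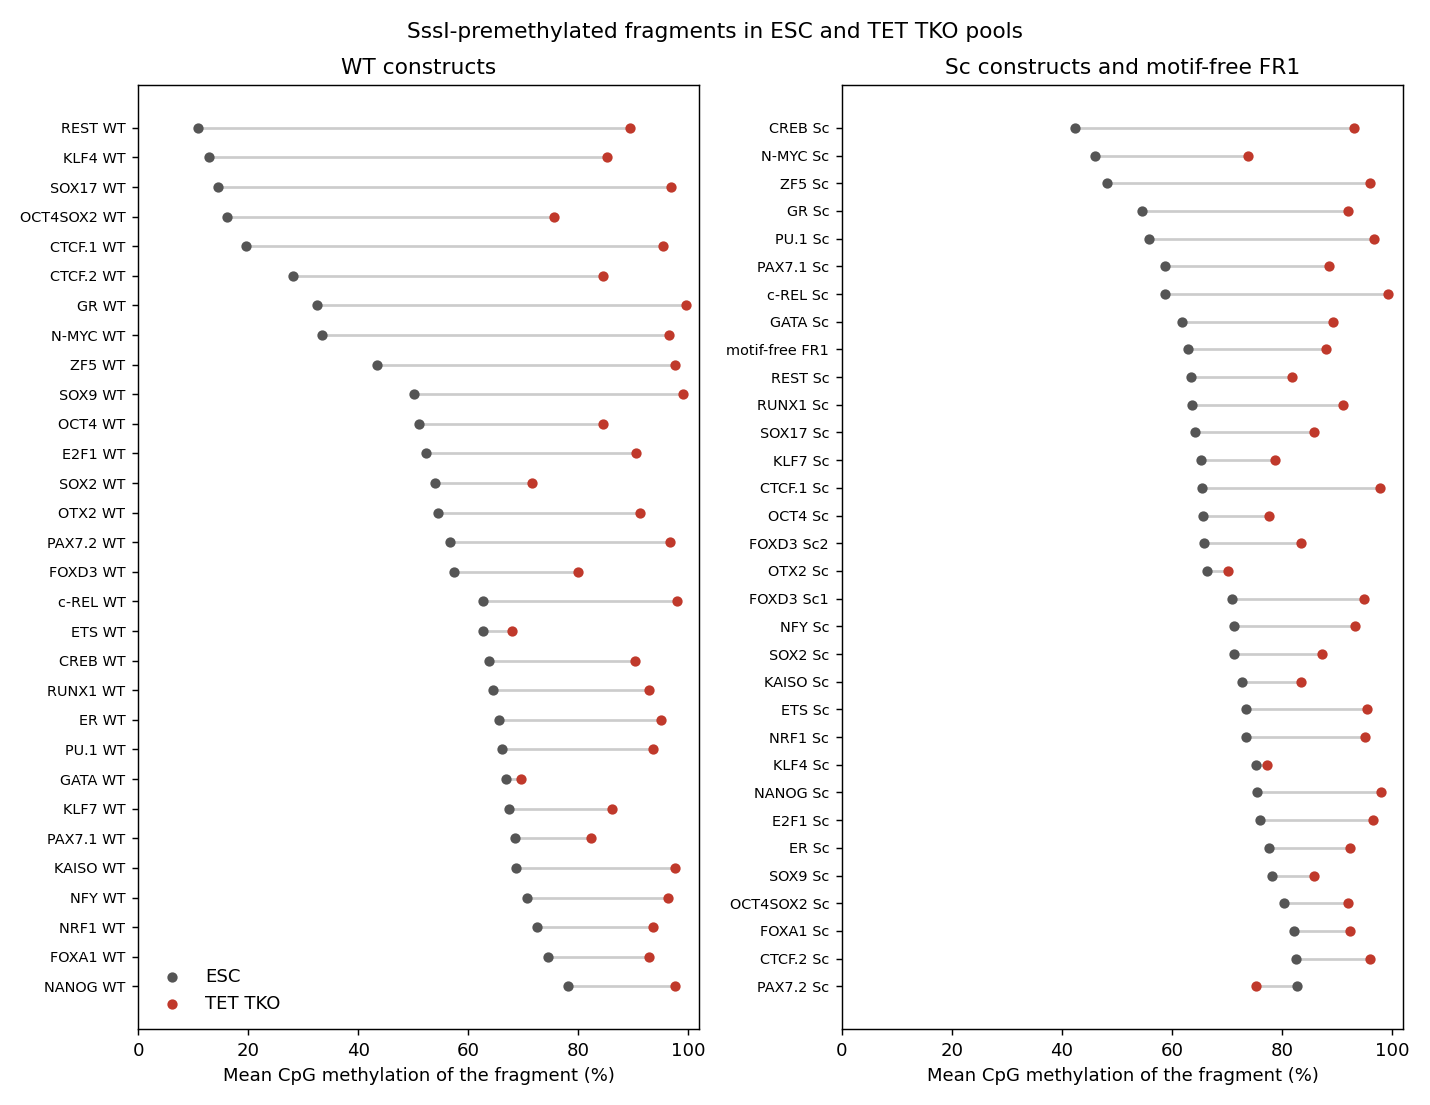
Mean CpG methylation of each fragment (x axis, percent) in the ESC pool (grey) and the TET TKO pool (red), with WT constructs on the left and Sc constructs with the motif-free fragment on the right, each sorted by the ESC level. Each point is the mean over the CpGs of 1 fragment in 1 pool, and 61 of the 62 grey points lie left of their red partner.

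Against single ESC runs the direction was mostly the same and the size was not. With run 4 alone as the ESC value, WT constructs were higher in TET TKO by a mean of 51.7 points (26 constructs) and Sc constructs by 26.3 points (29 constructs). With run 5 alone the means were 21.9 points (22 WT constructs) and 16.3 points (28 Sc constructs). In run 4 all upstream CpGs were covered in 24 WT but only 18 Sc fragments, and all downstream CpGs in 25 and 28. More Sc than WT values against run 4 thus lacked upstream CpGs, where that run was low. The part of this in the WT and Sc means against run 4 was not tested. The motif-free fragment was higher by 49.0 points against run 4 and by 22.2 points against run 5, so that against run 5 alone the WT mean was not above it. Of 46 constructs with values against both runs 37 were higher in TET TKO against each of them. Over these 46 constructs the mean difference was 34.4 points against run 4 and 17.8 points against run 5. Over separate runs, every TET TKO run was above every ESC run in 48 of 61 upstream fragments (78.7%) and in 49 of 62 downstream fragments (79%). These comprised 26 of 30 WT and 21 of 30 Sc fragments upstream, and 27 of 30 WT and 21 of 31 Sc fragments downstream. All of these upstream comparisons set 1 TET TKO run against 1 to 4 ESC runs. Those with 1 ESC run, among them KLF4 WT, SOX17 WT and SOX2 WT, show no spread over runs.

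At single CpGs, 1069 of the 1448 values (73.8%) were higher in TET TKO and 50 (3.45%) were lower (two-sided Fisher's exact test on the reads of the 2 pools, Benjamini-Hochberg adjusted p under 0.05, and a difference of at least 10 points). Of WT values 588 of 710 were higher and 14 lower, of Sc values 459 of 714 were higher and 36 lower, and of the 24 motif-free values 22 were higher and 0 lower. A quasi-binomial model with runs as units, possible for 218 values outside the upstream CpGs, called 0 in either direction, with 36 at an unadjusted p under 0.05. The Fisher test had called 171 of those 218 values higher. The smallest adjusted p of the quasi-binomial model was 0.200. With runs counted as above, TET TKO gave at most 2 runs per value, so this model could hardly call a single CpG. Its 0 calls therefore do not decide whether the Fisher calls hold over runs. The Fisher calls describe the reads of these pools only.

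The distribution of values moved toward full methylation. In ESC 134 values (9.25%) were below 20% methylation, 128 of them in WT constructs, and 96 (6.63%) were above 90%. In TET TKO 2 values (0.138%) were below 20% and 869 (60.0%) were above 90%, of which 266 were at 100%. Both values below 20% were in CREB WT, where the TET TKO pool had 18 reads.

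The profile along the fragment was uneven in ESC and flatter in TET TKO. Over the 23 CpGs outside the motif, the ESC mean of WT constructs ran from 31.5% to 73.1% (SD over positions 11) and that of Sc constructs from 45.6% to 84.2% (SD 11.6). In TET TKO the ranges were 82.0% to 95.7% (SD 3.39) and 83.1% to 94.1% (SD 3.28). The motif-free fragment had the same kind of profile, from 27.8% to 82.3% in ESC and from 81.4% to 94.7% in TET TKO. Across these 23 positions, which share libraries and flanking sequence, the ESC profiles of WT constructs and of the motif-free fragment had a correlation of 0.83, given as a description.

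The mean difference was above 0 at every CpG position, in WT as in Sc constructs. It was largest at the CpGs that were lowest in ESC. At 151 bp downstream the WT mean was 31.5% in ESC and 91.2% in TET TKO, and the Sc mean was 46.6% and 84.9%. At -208 the WT mean was 32.1% and 85.6%, and the Sc mean 45.6% and 83.1%. It was smallest at -235, where the WT mean was 73.1% in ESC and 90.7% in TET TKO and the Sc mean was 81.9% and 89.1%. At -235, 25 of 30 WT and 21 of 30 Sc constructs were higher in TET TKO, whereas at -208 all 30 WT and all 30 Sc constructs were.

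**Figure D2:**
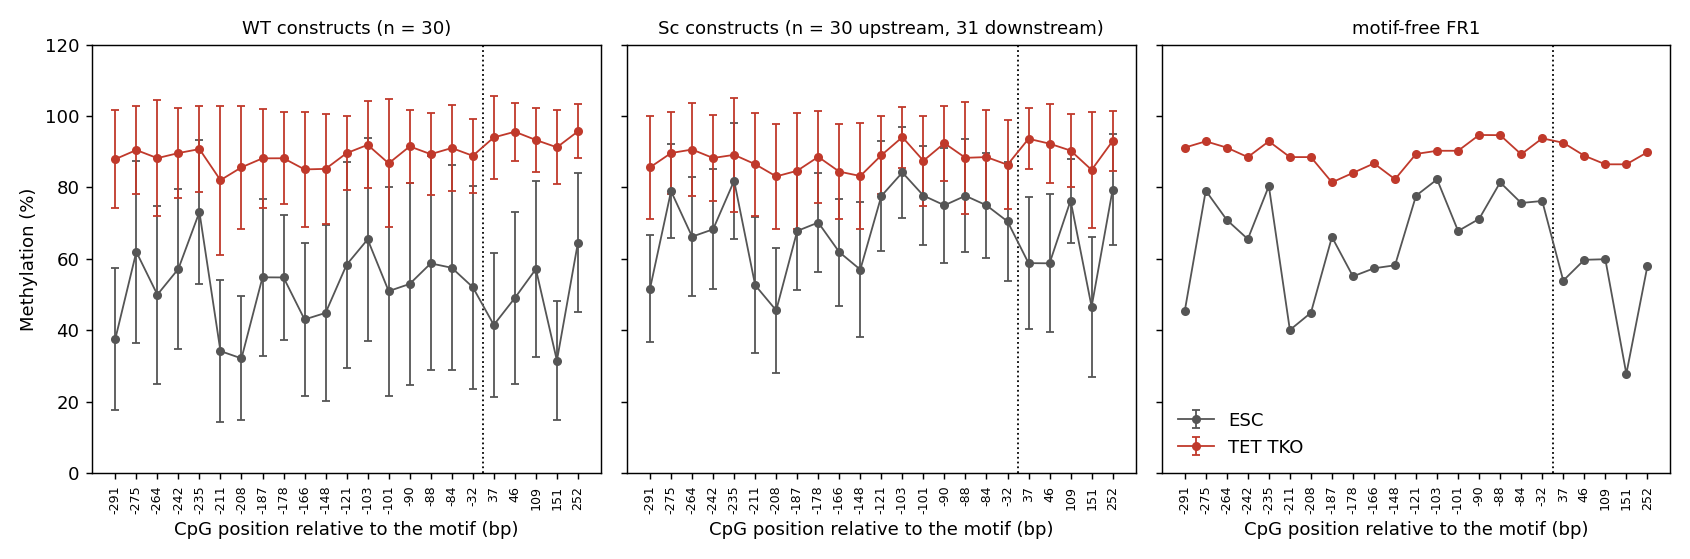
Methylation (y axis, percent) at each CpG outside the motif (x axis, position in bp relative to the motif, dotted line) in ESC (grey) and TET TKO (red), as the mean over WT constructs, over Sc constructs, and for the motif-free fragment. Bars are the SD over constructs, and the red profiles lie above the grey ones at every position.

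Upstream and downstream CpGs were read as separate amplicons. Upstream, WT constructs had a mean of 52.2% in ESC and 88.3% in TET TKO, a difference of 36.2 points (SD 24.6 over 30 constructs). Downstream they had 48.7% and 94.0%, a difference of 45.2 points (SD 18.8). Sc constructs differed by 18.9 points upstream (SD 15.1 over 30 constructs) and by 26.9 points downstream (SD 14.7 over 31). In 22 of 30 WT and 18 of 30 Sc constructs the downstream difference was the larger. Of the 50 values that were lower in TET TKO, 44 were upstream (4.01% of 1098 tested values) and 6 downstream (1.94% of 310).

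CTCF, the zinc finger protein that anchors chromatin loops, was represented by both orientations of its motif. CTCF.1 WT had 19.7% in ESC and 95.4% in TET TKO, a difference of 75.7 ± 8.02 points, and all of its 24 CpGs were called higher. The CpG inside the CTCF.1 motif had 1.90% of 210 reads methylated in ESC and 90.2% of 143 reads in TET TKO. CTCF.2 WT had 28.1% in ESC and 84.4% in TET TKO, a difference of 56.3 ± 12.5 points, with 23 of 24 CpGs called higher. The exception lay at -235, where 63 of 70 reads were methylated in ESC and 91 of 107 in TET TKO. The scrambled versions had 65.5% and 97.8% (CTCF.1 Sc) and 82.6% and 96.1% (CTCF.2 Sc). In both CTCF motifs the WT fragment was low in run 4 and in run 5 of ESC, at 7.61% and 34.1% for CTCF.1 and 11.1% and 35.6% for CTCF.2.

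REST, a repressor of neuronal genes in non-neuronal cells, had the lowest fragment of the ESC pool with the runs summed. REST WT had 10.97% in ESC and 89.4% in TET TKO, a difference of 78.5 ± 7.26 points, and all 24 CpGs were called higher with differences of 63.0 to 91.5 points. Its upstream part was at 0.654%, 7.25% and 27.2% in the 3 ESC runs that covered it and at 88.4% in the TET TKO run. REST Sc had 63.4% and 81.8%, and its own ESC runs ranged from 44.1% to 83.4% upstream.

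KLF4, a pluripotency factor, had the largest change of the difference between WT and Sc with the runs summed. KLF4 WT had 12.9% in ESC and 85.2% in TET TKO, a difference of 72.4 ± 9.07 points, with all 24 CpGs called higher. KLF4 Sc had 75.3% and 77.2%, a difference of 1.91 ± 8.09 points, with 6 CpGs called higher and 3 lower. KLF4 WT rested on ESC run 4, and in that run KLF4 Sc was at 97.5% against 67.4% in run 5. In TET TKO the downstream part of KLF4 Sc was at 100% in run 9 and 73.2% in run 10, so that this fragment also differed between runs of the same pool.

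The SOX family motifs, bound by HMG-box factors of pluripotent, endodermal and other lineages, did not move together. With the runs summed SOX17 WT had the largest difference, with 14.6% in ESC and 96.8% in TET TKO (82.2 ± 10.6 points), and all 23 CpGs were called higher. Its upstream part was at 2.41% in ESC run 4 and 95.9% in TET TKO run 10, while its downstream part was at 45.5% and 100%. Run 4 supplied 77.0% of its upstream ESC reads and run 5 none, and against run 4 alone the difference was 85.0 points, below the 87.8 points of CTCF.1 WT. SOX9 WT had 50.1% and 99.0%, a difference of 48.9 ± 7.99 points, which was 78.6 points against run 4 alone and 40.1 points against run 5 alone. SOX2 WT had 54.0% and 71.6%, a difference of 17.6 ± 15.3 points, with 13 of 23 CpGs called higher and 0 lower. Run 4 supplied 100% of the ESC reads of SOX2 WT. For SOX2 Sc, run 5 supplied 97.0% of the upstream and 76.7% of the downstream ESC reads. SOX17 Sc had 64.2% and 85.8%, SOX9 Sc 78.2% and 85.8%, and SOX2 Sc 71.3% and 87.2%.

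The composite OCT4SOX2 motif, which both pluripotency factors can occupy together, was low in ESC and incomplete in TET TKO. OCT4SOX2 WT had 16.2% in ESC and 75.5% in TET TKO, a difference of 59.4 ± 9.92 points, with all 23 CpGs called higher. Its TET TKO profile was uneven, with 48 of 80 reads methylated at -148 but all 80 at -101, and with 21 of 52 reads methylated at 37 bp but all 53 at 46 bp downstream. OCT4SOX2 Sc had 80.3% and 92.1%. In the downstream part TET TKO run 9 had 99.0% for WT and 57.9% for Sc, and run 10 had 78.6% and 87.8%, so the order of WT and Sc differed between these runs. OCT4 WT, with the octamer motif alone, had 51.0% and 84.4% (33.4 ± 18.04 points). Against ESC run 5 alone, in which it was at 91.3%, the difference of OCT4 WT was -10.96 points on 18 CpGs, whereas against run 4 alone it was 62.5 points on 23 CpGs.

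Several further motifs had differences of 30 points or more. GR WT, the glucocorticoid receptor element, had 32.4% in ESC and 99.6% in TET TKO (67.2 ± 14.0 points, on a median of 22 reads in TET TKO). N-MYC WT, an E-box, had 33.5% and 96.5% (63.1 ± 13.7 points). E2F1 WT, the site of a cell cycle factor, had 52.3% and 90.4% (38.1 ± 9.04 points), and the difference was 63.1 points against ESC run 4 alone and 13.6 points against run 5 alone. The scrambled versions of GR, N-MYC and E2F1 had 54.5% and 92.1% (GR Sc, 59.3 points against run 4 and 19.0 against run 5), 46.0% and 73.8% (N-MYC Sc), and 75.9% and 96.6% (E2F1 Sc). Within ESC run 4 GR WT was at 28.6% and GR Sc at 32.8%, and N-MYC WT at 33.5% and N-MYC Sc at 34.5%. Differences above 30 points were also measured at ZF5 WT, with 43.5% and 97.7% (54.2 ± 12.3 points), and PAX7.2 WT, with 56.7% and 96.7% (39.99 ± 9.47 points). OTX2 WT had 54.5% and 91.2% (36.7 ± 5.33 points), and c-REL WT had 62.7% and 97.9% (35.2 ± 6.19 points).

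NRF1, whose binding is blocked by methylation of its motif, had 72.4% in ESC and 93.5% in TET TKO for the WT fragment and 73.5% and 94.99% for the Sc fragment. Run 5 supplied 86.7% to 99.7% of the ESC reads of both fragments. The WT difference was 21.1 ± 6.45 points and the Sc difference 21.5 ± 10.6 points, both close to the 25.2 points of the motif-free fragment.

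With the runs summed the WT constructs with the smallest differences were GATA, ETS and PAX7.1. GATA WT, the motif shared by zinc finger factors of blood and endoderm, had 66.9% in ESC and 69.6% in TET TKO, a difference of 2.73 ± 10.99 points. At GATA WT 5 CpGs were called higher and 7 lower, the lower ones between -275 and -84. ETS WT had 62.8% and 68.0% (5.21 ± 13.5 points), with 8 CpGs called higher and 4 lower. PAX7.1 WT, a paired-box motif, had 68.5% and 82.4% (13.9 ± 7.201 points). In GATA WT and ETS WT the upstream and downstream parts went apart: upstream GATA WT had 71.7% and 65.4% and ETS WT 60.0% and 59.6%, while downstream GATA WT had 49.6% and 84.8% and ETS WT 69.9% and 95.7%. This order did not hold within run 4, against which PAX7.1 WT differed by 45.9 points, GATA WT by 23.2 points and ETS WT by 20.7 points, while RUNX1 WT differed by -2.98 points. Against run 5 alone the values were 11.8 points for PAX7.1 WT, 0.840 for GATA WT and -16.2 for ETS WT. Upstream ETS WT was at 40.1% in ESC run 4 and 82.4% in run 5, with TET TKO at 59.6% between them.

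FOXD3 WT, a forkhead motif, had 57.5% in ESC and 79.9% in TET TKO (22.4 ± 12.5 points), with 12 CpGs called higher and 1 lower. Against runs 4 and 5 alone the difference was 27.5 and 14.6 points. Its 2 scrambled versions differed from each other in TET TKO, at 94.8% for Sc1 and 83.5% for Sc2. They had 70.9% and 65.8% in ESC. In TET TKO the FOXD3 WT fragment was below Sc1 by more than the counting interval (-14.9 ± 8.21 points), whereas its difference to Sc2 was within it (-3.63 ± 9.12 points).

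Among Sc constructs, the largest differences with the runs summed were in CREB Sc, ZF5 Sc and PU.1 Sc. CREB Sc had 42.3% in ESC and 93.2% in TET TKO (50.8 ± 11.3 points), and ZF5 Sc had 48.3% and 95.9% (47.7 ± 8.21 points). PU.1 Sc had 55.8% and 96.7% (40.9 ± 9.74 points). In ESC the upstream part of CREB Sc was at 15.7% in run 4, 40.9% in run 6 and 72.2% in run 3. Against run 4 alone ZF5 Sc differed by 50.1 points and PU.1 Sc by 52.1 points, and RUNX1 Sc, at 63.9 points, was above both. Against run 5 alone they differed by 34.9 and 22.99 points, and NANOG Sc, at 46.3 points, was above both. The smallest differences with the runs summed were in PAX7.2 Sc, KLF4 Sc and OTX2 Sc. PAX7.2 Sc was the only construct with a lower mean in TET TKO in the summed values, with 82.8% in ESC and 75.2% in TET TKO (-7.57 ± 19.2 points, on a median of 22 reads in TET TKO). OTX2 Sc had 66.3% and 70.1% (3.81 ± 9.60 points), and its 8 CpGs called higher were matched by 8 called lower. Against runs 4 and 5 alone OTX2 Sc differed by 34.3 and 1.10 points, and KLF4 Sc by -20.3 and 9.79 points.

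**Figure D3:**
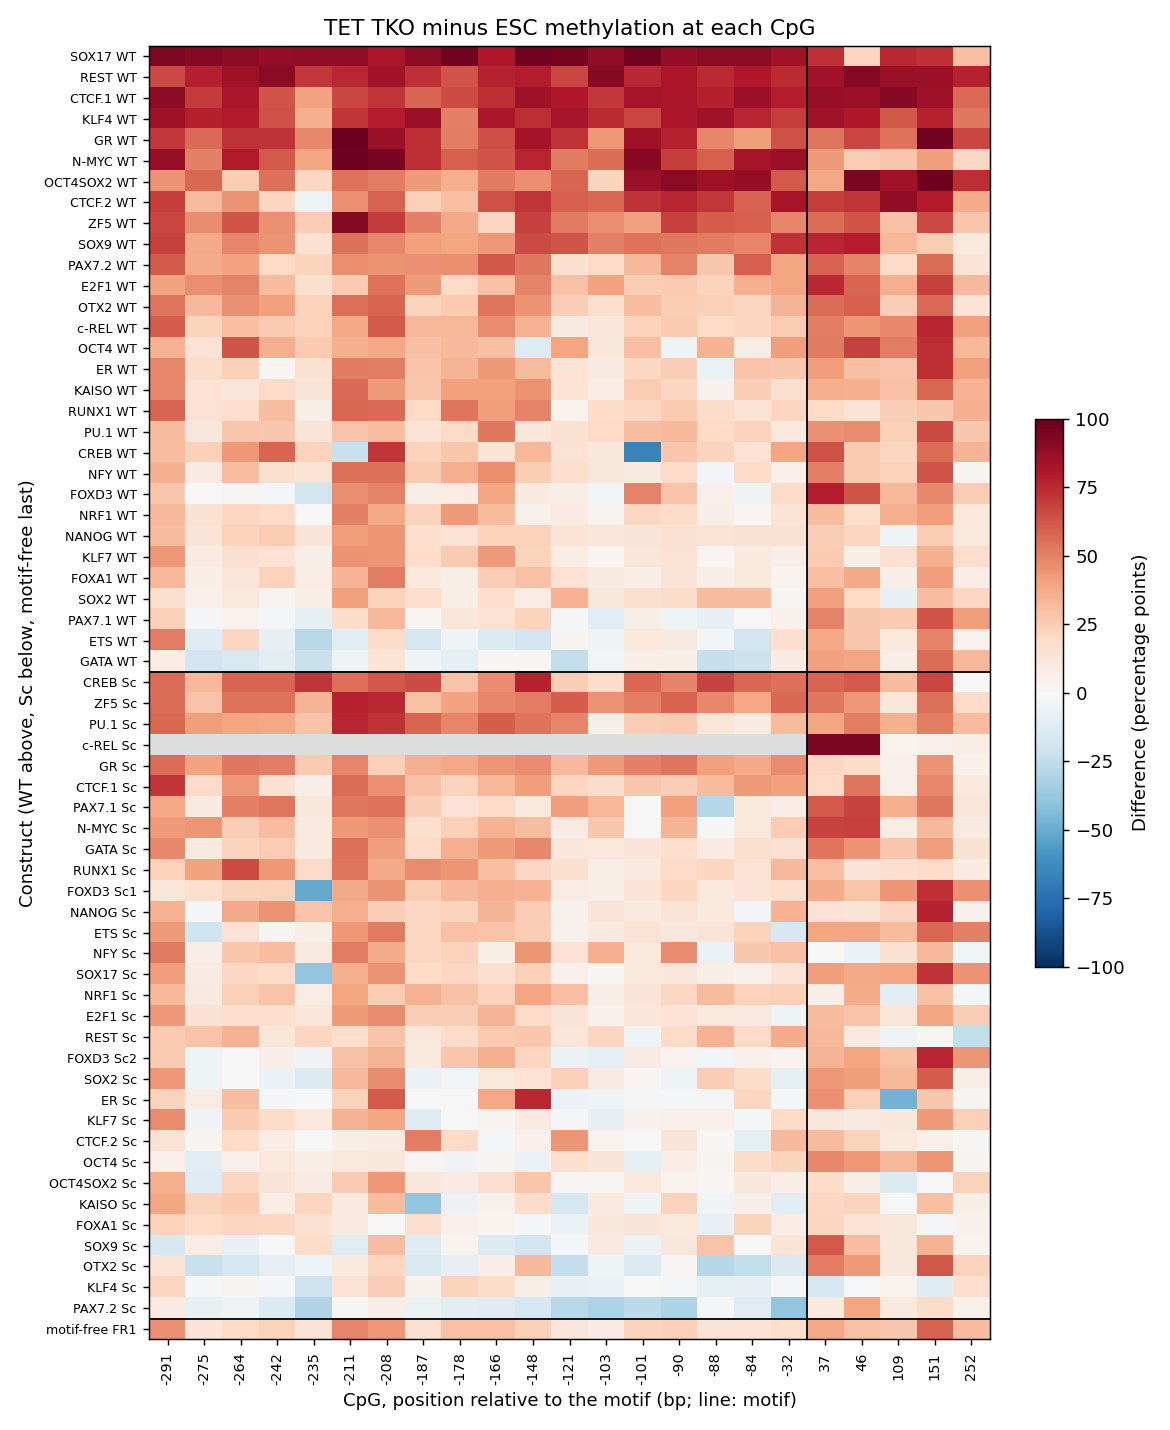
Difference in methylation, TET TKO minus ESC (colour, percentage points), for each construct (rows, WT above, Sc below, motif-free last, sorted by mean difference) at each CpG outside the motif (columns, position in bp). Red marks higher values in TET TKO, blue lower values, and grey CpGs below 10 reads in a pool, which are the 18 upstream CpGs of c-REL Sc.

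CpGs inside the motifs followed their fragments. Of 40 such values 33 (82.5%) were higher in TET TKO and 0 lower. The share higher was 73.8% over all 1448 values, 70.9% upstream and 82.9% downstream, and 3.45% of all values were lower. The share inside the motifs was thus near that of the downstream CpGs. The 3 CpGs of ZF5 WT, the site of a zinc finger factor with a CG-rich motif, had 44.5%, 33.0% and 18.3% in ESC and 99.5%, 99.5% and 99.0% in TET TKO. The REST WT motif CpG had 2.96% and 79.9%, that of KLF4 WT 14.8% and 80.4%, and that of N-MYC WT 19.6% and 99.1%. The single CpG at the insertion point of the motif-free fragment had 54.0% in ESC and 57.6% in TET TKO, which was not a called difference, although its neighbours at -32 and 37 bp had 93.8% and 92.5% in TET TKO. The ETS WT motif CpG had 76.6% and 80.2%.

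To relate a motif to its own control, the methylation of Sc was subtracted from that of WT at each shared CpG (delta-met). In ESC the mean delta-met over 31 WT-Sc pairs was -16.4 points (SD 22.2), and in TET TKO it was 0.520 points (SD 12.04). The range over pairs was -64.2 to 21.4 points in ESC and -27.4 to 22.8 points in TET TKO. Delta-met was below 0 in 24 of 31 pairs in ESC and in 15 of 31 in TET TKO. The change of delta-met exceeded its counting interval upward in 14 pairs and downward in 5, and it was within the interval in 12.

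At single CpGs, the change from ESC to TET TKO was larger at WT than at Sc in 345 of 714 values (48.3%) and smaller in 122 (17.1%), by a two-sided z test of the difference of differences on the reads of the 2 pools (Benjamini-Hochberg adjusted p under 0.05 and at least 10 points). The largest upward changes of delta-met were at KLF4, SOX17 and REST. KLF4 went from -62.5 to 8.02 points (change 70.5 ± 12.1), SOX17 from -49.6 to 10.96 points (60.5 ± 18.6) and REST from -52.4 to 7.68 points (60.1 ± 12.1). OCT4SOX2 went from -64.2 to -16.5 points (47.7 ± 11.9), CTCF.1 from -45.8 to -2.43 points (43.3 ± 12.7) and CTCF.2 from -54.5 to -11.6 points (42.8 ± 16.7).

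Smaller upward changes were measured at SOX9 (41.3 ± 12.95), N-MYC (35.3 ± 18.2), GR (29.6 ± 19.0), OCT4 (21.5 ± 19.8) and E2F1 (17.5 ± 10.7). Upward changes beyond the interval were also measured at PAX7.2 (47.6 ± 21.4), OTX2 (32.9 ± 10.98) and KAISO (18.03 ± 14.2). At OTX2 the change turned to -38.6 points without ESC run 7. Within ESC run 4 alone, delta-met in ESC was only -0.946 points at N-MYC and -4.20 points at GR. The changes against that run were 23.7 and 11.8 points. The change was within its interval at SOX2 (1.67 ± 18.5), NRF1 (-0.380 ± 12.4) and FOXD3 (-1.57 ± 14.2 against Sc1 and 4.68 ± 14.9 against Sc2). At SOX2 the ESC reads of WT and Sc came mainly from different runs, so motif and run cannot be told apart there. Against run 4 alone the change at SOX2 was 7.16 points, on 5 CpGs. The largest downward changes were at GATA, CREB and ETS. GATA went from 5.15 to -19.7 points (-24.9 ± 12.9), CREB from 21.4 to -2.82 points (-24.2 ± 19.99) and ETS from -10.6 to -27.4 points (-16.8 ± 15.2). The direction at ETS turned without ESC run 5, to 4.13 points, and it was 18.2 points against run 4 alone, on 6 CpGs.

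Because WT and Sc fragments of a pair were often read from different ESC runs, the same change was computed within single ESC runs. Against run 5 alone the mean change of delta-met was 2.95 points over 20 pairs, of which 11 were above 0, and against run 4 alone it was 22.3 points over 26 pairs, of which 18 were above 0. The sets of pairs differ, and run 5 gave no value for KLF4, SOX17, REST, OCT4SOX2, GR or N-MYC. Of 8 pairs with at least 18 CpGs against each run, 4 had the same direction against both. They were CTCF.1 (41.5 and 46.4 points against runs 4 and 5), ZF5 (19.9 and 17.9), GATA (-28.8 and -19.3) and FOXD3 against Sc1 (-15.3 and -8.73). CTCF.2 had 38.7 points against run 5 and 58.9 points against run 4, the latter on 6 CpGs. OCT4 had 50.1 and -2.79 points, and RUNX1 had -66.9 and 8.70 points. E2F1 had 52.9 points against run 4, on 7 CpGs, and -7.63 points against run 5. For KLF4 (93.1 points) and SOX17 (36.4 points) run 4 alone gave a value, and REST had 99.0 points in run 4 on 6 CpGs. OCT4SOX2 had WT reads mainly in run 7 and gave no value within run 4 or 5.

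**Figure D4:**
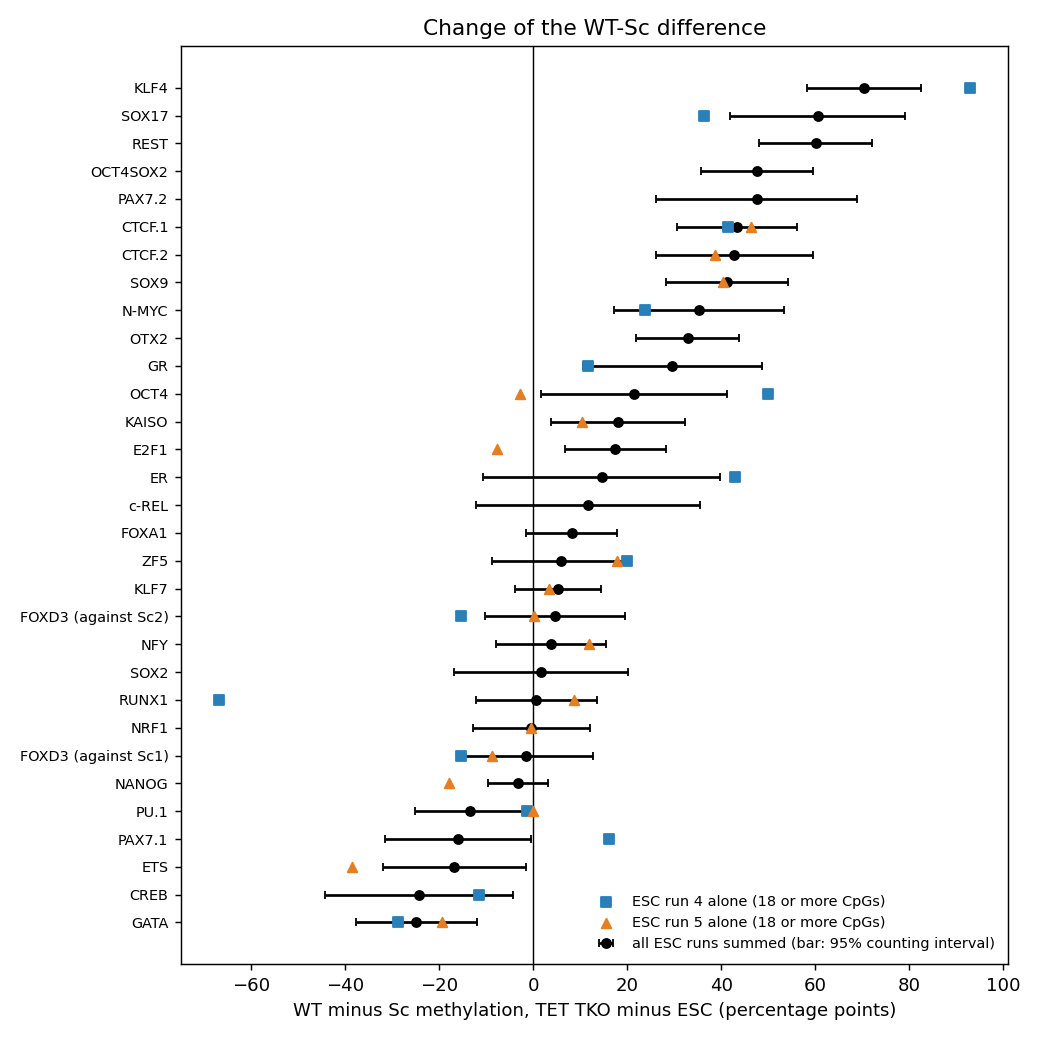
Change of the WT minus Sc methylation difference, TET TKO minus ESC (x axis, percentage points), for each WT-Sc pair, with all ESC runs summed (black, bars are 95% counting intervals) and with ESC run 4 (blue) or run 5 (orange) alone where at least 18 CpGs were shared. CTCF.1 and GATA keep their side of 0 in all 3 values, whereas OCT4 and RUNX1 change side between the runs.

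Within TET TKO, 6 pairs had a WT fragment below its Sc fragment by more than the counting interval. These were ETS (-27.4 ± 10.4 points), GATA (-19.7 ± 11.9), OCT4SOX2 (-16.5 ± 10.8), SOX2 (-15.6 ± 8.998), FOXD3 against Sc1 (-14.9 ± 8.21) and CTCF.2 (-11.6 ± 7.78). In 5 pairs the WT fragment was above, namely N-MYC (22.8 ± 7.74), PAX7.2 (21.5 ± 18.2), OTX2 (21.0 ± 9.91), KAISO (14.1 ± 12.3) and SOX9 (13.2 ± 6.02). Most of these differences lay upstream, where 1 run supplied the reads. Downstream, delta-met in TET TKO was -3.36 points at ETS, -4.12 at GATA, 10.99 at OCT4SOX2, -17.5 at SOX2, -1.41 at FOXD3 against Sc1 and -0.458 at CTCF.2. For the pairs with WT above Sc it was 2.16 at N-MYC, -10.1 at PAX7.2, 7.04 at OTX2, 12.6 at KAISO and 6.33 at SOX9. Where 2 TET TKO runs could be compared, downstream, the same fragment differed between runs 9 and 10 by a mean absolute 8.99 points (SD of the differences 13.6 over 47 fragments), and the levels of the 47 fragments in the 2 runs had a correlation of 0.10, given as a description. This spread between runs was of the same order as the WT-Sc differences named above.

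RNA-seq of the same kinds of cells, 3 libraries each, was used to check the genotype and the methylation machinery. Total counts were 20570050 to 23976914 in ESC and 80704741 to 93210102 in TET TKO. Tet1 (chromosome 10, 62804570 to 62908996, GRCm38) had 64.2, 58.0 and 66.7 RPKM in ESC and 12.7, 15.4 and 10.9 RPKM in TET TKO, a log2 fold change of -2.28 ± 0.14 (SE, edgeR quasi-likelihood test, adjusted p = 8.67e-05). Tet2 had 19.95, 19.4 and 15.7 RPKM in ESC and 2.33, 2.58 and 2.23 RPKM in TET TKO (log2 fold change -2.94 ± 0.13, adjusted p = 1.74e-05). Tet3 was below 1 RPKM in all 6 libraries and was not tested. Tet1 and Tet2 thus fell, with no overlap between groups, and the remaining counts are over whole genes, which does not show whether the transcripts are functional.

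Over all genes 153 of 13939 (1.1%) were called higher and 169 (1.21%) lower in TET TKO (adjusted p under 0.001 and 3-fold), and with 1 library left out these counts were 14 to 161 and 36 to 168. Of the 7 methylation genes other than the Tet genes 1 was called higher and 0 lower. It was Tdg, with 0.322 ± 0.012 RPKM (SD, n = 3) in ESC and 1.64 ± 0.11 RPKM in TET TKO, whose reads can be shared with a pseudogene copy, Tdg-ps, and which lost its call when any library but TET TKO replicate 3 was left out. Dnmt1 had 73.6 ± 1.06 and 66.7 ± 3.59 RPKM (adjusted p = 0.231) and Uhrf1 109 ± 5.92 and 96.8 ± 14.5 RPKM (adjusted p = 0.331). Dnmt3a, Dnmt3b, Dnmt3l and Uhrf2 did not pass either, with a wide spread of Dnmt3b in TET TKO (86.6 ± 48.4 RPKM). Sox2 had 219 ± 16.5 and 226 ± 36.3 RPKM, Pou5f1, which encodes OCT4, had 380 ± 14.9 and 284 ± 71.6 RPKM, and Foxd3 had 19.6 ± 3.68 and 6.40 ± 2.57 RPKM (adjusted p = 0.00456). Of 6 pluripotency markers 1 was called lower, Zfp42, from 294 ± 8.65 to 48.7 ± 10.7 RPKM. Esrrb (150 ± 9.05 and 98.3 ± 24.9 RPKM), Pou5f1 and Nanog had lower means in TET TKO without a call, and Sox2 and Utf1 had higher means. The summed level of the 6 was 1558 to 1585 RPKM in ESC and 1156 to 1287 RPKM in TET TKO. Summed markers of feeder fibroblasts (4 genes) were 5.41 to 6.60 and 2.71 to 4.95 RPKM, and those of differentiated cells (6 genes) 4.54 to 6.24 and 8.34 to 15.8 RPKM, where Nes alone had the higher mean in TET TKO (3.89 and 10.5 RPKM) and the other 5 genes had lower means, with 0 genes called in either list, of which 1 and 4 genes were too low to be tested. The part of these RNA differences in the methylation results was not tested.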

How the data were processed

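Per the file headers and the study's methods, the authors trimmed the reads (Trim Galore 0.4.4), assigned them to constructs by motif, mapped them with Bismark 0.20.0, removed duplicates by molecular identifier and deposited, for every run, the counts of total and methylated reads at each CpG of each construct. Non-CpG methylation was used to filter ESC reads but not TET TKO reads. RNA reads were mapped with STAR 2.6.1b and deposited as featureCounts gene counts (GRCm38, unstranded).

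Here counts of reads and methylated reads were summed over runs (10 reads minimum in both pools). A fragment's level is the mean over its CpGs. The 95% counting intervals add 1 methylated read and 2 reads to each pool and use the median reads per CpG. Single CpGs were compared with Fisher's exact test and WT-Sc pairs with a z test (scipy 1.17.1, Python 3.11.15), each adjusted by Benjamini-Hochberg. Both tests were checked on simulated reads without differences between runs, so the check does not cover the spread between runs seen here. RNA counts were tested with edgeR 4.0.16 (TMM, genes with 1 RPKM in at least 1 library), with DESeq2 1.42.0 as an alternative in R 4.3.3. RPKM values were computed from the counts and gene names came from an Ensembl table.

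The methods name the DSS package for WT against Sc, which was not used here. Constructs chosen for naming were the 16 motifs and the motif-free fragment described in full, the 3 WT and 3 Sc constructs with the largest and the smallest differences, and the motifs with the 3 largest changes of delta-met in each direction. Other constructs were named where they shared a ranking or a limit with these. The members, lists and tests were chosen with earlier results of these data known. The methods call the RNA libraries biological replicates without saying whether they came from separate cultures. Their p-values measure the spread between these libraries, and how much of it is technical is not known. Alternatives were other read minimums, thresholds, scales, parts of the fragment and single runs left out. ESC run 4 alone and ESC run 5 alone were added after the data were seen.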

Additional observations from a re-analysis of the deposited data

Results flagged for a closer look

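The change from ESC to TET TKO differed between the WT and the Sc construct of a pair at many single CpGs, by the z test of the difference of differences on the reads of the 2 pools. It was larger at WT in 345 of 714 values and smaller at WT in 122. These counts compare 1 pool with 1 pool, and the runs within a pool were not treated as replicates. Against ESC run 4 alone the change was larger at WT in 192 and smaller in 72 of 414 values, and against ESC run 5 alone in 116 and 94 of 394 values. These single-run counts cover different sets of pairs.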

How the results depend on the processing

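The means were 38.2 points for the difference of WT constructs, 21.3 for Sc constructs, 25.2 for the motif-free fragment and 16.9 for the change of delta-met, and none of these 4 changed direction under any alternative run. With each run left out in turn they ranged from 27.2 to 45.2, from 17.5 to 28.6, from 22.3 to 46.3 and from 10.6 to 18.6. The low ends of the WT and Sc means and of delta-met came without ESC run 4, where 219 calls had a larger change at WT, against 345 with all runs. The high ends of the Sc and motif-free values came without ESC run 5, and the WT high end came without TET TKO run 10, which leaves few upstream CpGs. Over the same runs the calls at single CpGs ranged from 289 to 1069 higher and 4 to 64 lower, and those for WT against Sc from 86 to 362 larger and 24 to 129 smaller, with each low end without TET TKO run 10. With runs at equal weight, with TET TKO runs 10 and 11 as 1, the WT, Sc and motif-free differences were 40.7, 23.5 and 35.7. Upstream CpGs alone gave 36.2 for WT and 18.9 for Sc, and downstream CpGs alone gave 45.2, 26.9 and 37.0 for WT, Sc and the motif-free fragment. A minimum of 20 points left 24 values lower, the odds ratio scale left 74 values with a smaller change at WT, and the quasi-binomial model over runs called 0 higher and 0 lower of 218.

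Of the alternatives added after the data were seen, ESC run 4 alone gave 51.7 for WT, 26.3 for Sc, 49.0 for the motif-free fragment and 22.3 for delta-met, with 192 larger and 72 smaller WT-Sc changes. In that run fewer Sc than WT fragments had all upstream CpGs covered. ESC run 5 alone gave 21.9, 16.3, 22.2 and 2.95 for WT, Sc, the motif-free fragment and delta-met, with 623 CpGs higher and 116 WT-Sc changes larger. The WT mean was then not above the motif-free value, but run 5 gave no value for SOX17, REST, KLF4, GR, N-MYC and OCT4SOX2 WT. Among constructs whose difference exceeded its counting interval, it turned negative at OCT4 WT (-10.96 without ESC run 4 and with run 5 alone), OCT4 Sc (-3.42 with run 5 alone), KLF7 WT (-7.14 without run 5 and -5.47 with run 4 alone), RUNX1 WT (-2.98 in both), KLF7 Sc (-26.3 with run 4 alone), REST Sc (-15.7 with run 4 alone) and OTX2 WT (-0.628 without run 7). Among pairs whose change of delta-met exceeded its interval, it turned at OCT4 (-17.0 without run 4, -2.79 with run 5 alone), E2F1 (-7.74 and -7.63), PU.1 (0.0077 in both and 0.094 downstream), ETS (4.13 without run 5, 18.2 with run 4 alone), OTX2 (-38.6 without run 7, -35.0 with run 5 alone), GATA (0.996 without TET TKO run 10), N-MYC (-5.34 downstream), SOX9 (-6.16 with run 4 alone) and PAX7.1 (16.0 with run 4 alone). With each run left out in turn, the other ends of the ranges were 62.5 at OCT4 WT, 21.3 at KLF7 WT, 29.3 at RUNX1 WT and 41.0 at OTX2 WT for the differences. For the change of delta-met they were 43.4 at OCT4, 52.7 at E2F1, -13.6 at PU.1, -39.0 at ETS, 35.7 at OTX2 and -43.2 at GATA. Of the values within their intervals, 5 of 8 differences and 11 of 12 changes of delta-met also took the other sign under at least 1 alternative, among them ETS WT (-16.2 with run 5 alone), KLF4 Sc (-20.3 with run 4 alone), RUNX1 delta-met (-66.9) and FOXD3 delta-met against Sc2 (-15.4), both with run 4 alone. The cause of these turns was not tested beyond the choice of run.

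Of the RNA counts, 153 higher and 169 lower genes became 404 and 506 with DESeq2, 574 and 689 with no filter on low counts, and 99 higher with library sizes alone, and 331 were higher by adjusted p alone. With each library left out they ranged from 14 to 161 higher and from 36 to 168 lower. The replicate numbers marked no shared culture in the labels, and the main test did not pair the libraries. Deviations of same-numbered libraries had correlations of -0.090, 0.34 and 0.24, and whether these libraries share a batch was not tested. A replicate block gave 342 higher and 332 lower. Tet1, Tet2 and Zfp42 kept their calls under each of these, Tdg lost its call without any 1 library other than TET TKO replicate 3, and Foxd3 passed with DESeq2 (adjusted p = 5.58e-08), with no filter and with the block. Col1a2 passed as higher with no filter (edgeR quasi-likelihood test, adjusted p = 0.0004).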

Other observations

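In TET TKO many CpGs of a fragment had nearly the same methylation level. For each of the 61 fragments with upstream values, the largest number of the 18 upstream CpGs whose levels lay within 2 points of each other was counted. The median of this number was 3 in ESC and 11 in TET TKO, and it was larger in TET TKO in 59 of 61 fragments. Values close to full methylation are bound to lie together, so the 28 fragments with an upstream mean below 90% in TET TKO were also counted, and there the medians were 3 and 8.5. In PAX7.1 WT 17 of the 18 upstream CpGs lay between 77.0% and 78.6% in TET TKO, on a median of 126 reads. In FOXD3 Sc2 13 lay between 77.8% and 79.7%, in GATA WT 9 lay between 57.1% and 58.6%, and in OTX2 Sc 9 lay between 58.8% and 60.2%. In ESC the same 4 fragments had 3 or 4 such CpGs. The upstream reads of TET TKO came almost wholly from 1 run and those of ESC from several, and the part of this in the pattern was not tested.

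Outside the window of -300 to 260 bp the ESC pool had 249 values with at least 10 reads, at 16 positions, with a mean methylation of 82.3%, and the TET TKO pool had 0, so no comparison was made there.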
